A study of Homo sapiens with 7 samples.

Results

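The comparison described here set H1 cells kept for 24 h in E8 medium with XMD892 against the same cells in E8 medium alone. H1 is a widely used human embryonic stem cell line. The cells carried no engineered change (the labels give wild type), and 1 line was used. E8 is a defined medium that contains insulin, FGF2 and TGFβ, so those growth factors were supplied to both groups. XMD892 was given at 1 µM. The E8 group (n = 2) was harvested at 48 h and the XMD892 group (n = 2) at 24 h. No E8 sample from 24 h enters here, so the effect of the compound and that of harvest time cannot be told apart. The other libraries of the series, XMD892 for 12 h (n = 1) and for 48 h (n = 2), entered the fit of the spread and are given as context. A gene was tested where its normalised read count averaged at least 10 over the 4 compared libraries, which gave 16415 of the 19775 listed genes. The genes nearest below that limit were RNF157-AS1 and AC011921.1, with means of 9.994 and 9.9999, and those nearest above it were FAM133DP and USP27X-AS1, with means of 10.0001 and 10.003. Whether the replicates came from separate cultures is not stated in the labels. The p-values here reflect the spread between these libraries alone, which may be technical and is largely pooled across genes.

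ERK5, encoded by MAPK7, is a mitogen-activated protein kinase that the kinase MEK5 (MAP2K5) switches on in response to growth factors. XMD892 is known as an inhibitor of ERK5, and compounds of its family are also known to bind BET bromodomain proteins. Primed human pluripotent cells depend on FGF and on NODAL or activin signalling: they make NODAL, its co-receptor TDGF1, its antagonists LEFTY1 and LEFTY2 and several FGFs themselves, and NODAL raises its own transcription together with that of the LEFTY genes. The title of the study links ERK5 to this autocrine balance.

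The 4 libraries held between 18887150 and 24148186 reads in the listed genes. Values below are normalised read counts per library, given with replicate 1 first. A fold is the ratio of group means, and a log2 fold change is the difference of group means of log2(value + 1), which understates changes of low genes. Between the E8 libraries the difference followed transcript GC: across 16084 genes, which are not independent replicates, the log2 difference of the pair had a Spearman correlation of -0.65 with transcript GC, against -0.00 for the 24 h pair. The SD of that difference was 0.47 in E8 and 0.40 at 24 h. Among the genes given below with values, ALDH1A3, BNIP3, BOP1, CLDN6, ERBB2, FGF2, GABRP, GATA2, LIN28B, LSS, MAP3K3, MAPK7, MMP9, MYCN, MYL9, NLRP7, NODAL, PDK1, POU5F1, TAGLN, TERF1, TP53I3, VIM and VLDLR overlap a listed gene on the other strand, and ATP6V0C, SLC16A3 and SOX2 overlap one on their own; since the strand setting is not given, their reads cannot be told apart from those of the partner. Beside the lists below, the calls with each library's GC trend removed are given where the number in either direction differed by over 1.5 times, and the calls that remained without a library where more than 1 in 3 of them ended.

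MAPK7 itself, the gene of the intended target, did not pass the test: it stood at 711 and 727 in E8 and 748 and 857 at 24 h (log2 fold change 0.15, SE 0.16, adjusted p = 0.55). MAP2K5 stood at 331 and 353 and 366 and 276, so its groups overlapped (adjusted p = 0.74). An inhibitor acts on the protein, so these transcripts say nothing of kinase activity. The cells carried the markers of pluripotent stem cells in every library: the summed level of 10 markers was 182228 and 209506 in E8 and 186411 and 194526 at 24 h. POU5F1, the core pluripotency factor, stood at 46006 and 67034 in E8 and 58983 and 55747 at 24 h, with overlapping groups (adjusted p = 0.89). SOX2, its partner, stood at 5019 and 6618 and 4764 and 4888 (adjusted p = 0.25). Several defining markers of other lineages were not among the listed genes: SOX17, FOXA2, GATA6, HAND1, TFAP2B, ISL1, VTCN1, CGA, COL3A1, DCN, LUM and POSTN had no row. Brachyury, listed under its older symbol T, stood at 17.5 and 12.4 in E8 and 9.37 and 4.68 at 24 h and did not pass. The summed levels of the listed markers went from 303 and 299 in E8 to 84.4 and 97.3 at 24 h for mesendoderm (mostly MIXL1). Its other listed members were GSC, lower in both 24 h libraries, and EOMES, under the level limit and higher in both. For trophoblast and amnion (4 of 8 markers listed) the summed levels went from 277 and 349 to 81.2 and 92.6. They went from 2787 and 2585 to 1096 and 1164 for mesoderm (mostly KDR), from 3489 and 3747 to 2831 and 3478 for neuroectoderm, from 57.6 and 48.8 to 29.2 and 58.9 for endoderm, and from 6835 and 8078 to 7649 and 8568 for fibroblasts. The part of these markers in the results was not tested. In bulk RNA, fewer cells of a type and less RNA per cell cannot be told apart.

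Over all 16415 genes, 2652 (16.2%) passed limma at an adjusted p under 0.05. Of these, 1408 (8.58%) were higher at 24 h and 1244 (7.58%) lower. The counts given for lists below are to be read against these shares. An unadjusted p under 0.05 was reached by 5009 genes. At least a 4-fold change on the log2 scale was reached by 129 of the genes that fell and by 29 of those that rose, and the median log2 fold change was -0.93 among the former and 0.70 among the latter. The median over all genes was 0.01. The libraries of the 2 groups did not overlap for 9621 genes (58.6%), 29.7% of all genes higher at 24 h and 28.9% lower, so a lack of overlap alone marks little. Genes that rose had a median transcript GC of 58.4% and a median longest transcript of 2719 bases, those that fell 45.9% and 4655 bases, and those not called 47.9% and 3377 bases. In the fifth of genes with the lowest GC 1.27% rose, and in the fifth with the highest 21.5% did; with the GC trend of each library removed these shares were 9.51% and 18.2%. Against E8 replicate 1 alone, the log2 fold change over all genes had a Spearman correlation of 0.46 with transcript GC. Against E8 replicate 2 alone the correlation was 0.053. The median log2 fold change in the lowest and highest of these GC groups was -0.28 and 0.47 against E8 replicate 1. Against E8 replicate 2 these medians were 0.0006 and 0.069. The part of the E8 difference along GC in these calls was not tested. With the trend removed, 1280 of the 1408 genes (90.9%) and 1123 of the 1244 (90.3%) kept their call. That fit also called more genes in all, 3666 against 2652. Dependence on single libraries was strong: 322 genes that rose and 406 that fell kept their call whichever of the 4 libraries was left out. Without E8 replicate 1 the calls were 763 higher and 897 lower, without E8 replicate 2 2884 and 2012, without 24 h replicate 1 524 and 586, and without 24 h replicate 2 854 and 887. None of the 2652 turned direction in any of 20 alternatives. The groups did not overlap in 1407 of the 1408 and in all of the 1244. For these, leaving out a library could not turn the direction, so that outcome is no further support. In each called gene given below with the values of its libraries, the E8 and 24 h libraries did not overlap. A gene whose values are given below beside the word rose or fell passed in each of those alternatives too, unless its sentence says otherwise.

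**Figure D1:**
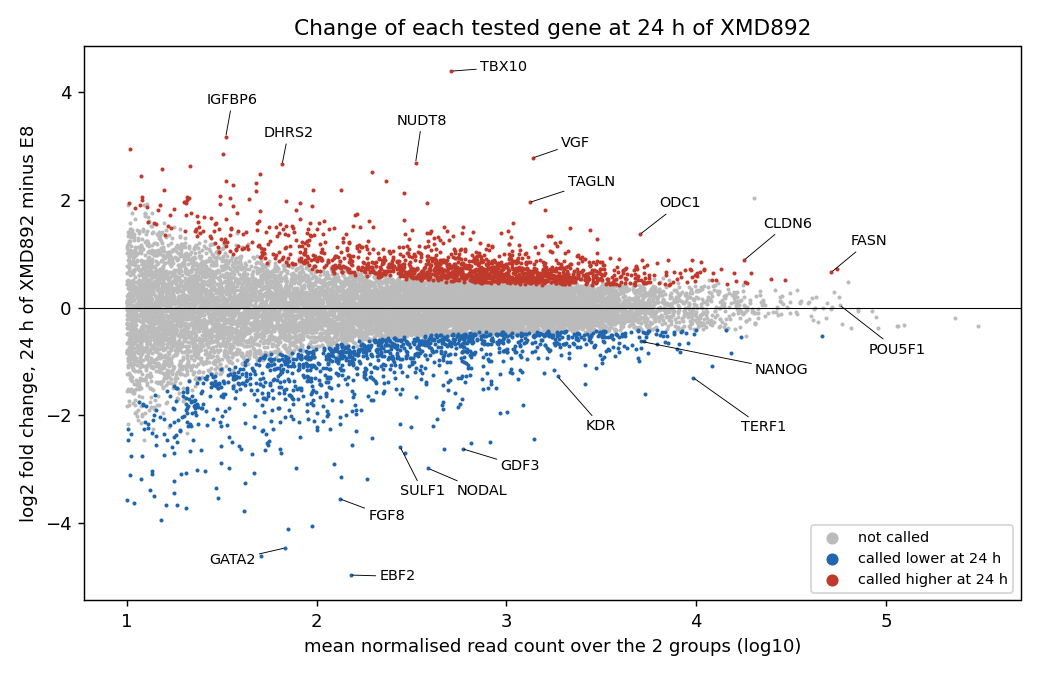
Log2 fold change of each of the 16415 tested genes (24 h of XMD892 minus E8, vertical axis) against its mean normalised read count over the 2 groups (log10, horizontal axis); each point is a gene, coloured by its call at a limma adjusted p under 0.05. Among the labelled genes TBX10 has the largest rise, and POU5F1 lies near 0.

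Most tested genes of the NODAL list fell. Of 11 tested members of the list of NODAL, GDF and LEFTY genes, 7 fell and 0 rose, with a median log2 fold change of -1.73. The list is wider than its name, and TGFB2, INHBE and the co-receptor gene TDGF1 are among the 7. Of these calls, 5 held whichever library was left out. NODAL, on chromosome 10 (70432315 to 70447951, GRCh38), stood at 598 and 782 in E8 and 92.7 and 78.6 at 24 h. That is an 8.06-fold lower mean (log2 fold change -2.99, SE 0.21, adjusted p = 1.1e-08), and at 48 h it stood at 77.8 and 83.3, close to its 24 h level. GDF3, a ligand of the same family that works with NODAL, fell from 1055 and 963 to 132 and 200.2 (6.07-fold, adjusted p = 1.6e-07). The secreted NODAL antagonists fell by smaller factors, a difference that was not tested. LEFTY1 went from 671 and 788 to 231 and 166 (3.67-fold, adjusted p = 3.9e-06) and LEFTY2 from 182 and 234 to 60.4 and 62.7 (3.38-fold, adjusted p = 0.00014). The 2 LEFTY genes are near-identical copies on chromosome 1, and the handling of reads that match both is not given, so their single values are uncertain. TGFB2, another ligand, fell from 101 and 87.6 to 19.8 and 22.4 (log2 fold change -2.11). The co-receptor gene TDGF1 was called lower at a smaller size (log2 fold change -0.65), but not without 24 h replicate 1. INHBE, an inhibin subunit, was called as well, and lost the call without E8 replicate 2 or 24 h replicate 2. TGFB1 and TGFB3 did not pass, with log2 fold changes of -0.29 and 0.71.

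Among FGF ligands, 5 of 11 tested members fell and 0 rose. Of the 5 FGF calls, 3 remained without E8 replicate 1, 24 h replicate 1 or 24 h replicate 2. The fall was large in 2 of them. FGF8 stood at 248 and 241 in E8 and 17.7 and 22.4 at 24 h, 12.2-fold lower (adjusted p = 2.9e-07). FGF4 stood at 251 and 231 and 22.9 and 29.9 (adjusted p = 2e-06). Both were already at this level in the single 12 h library, at 23.6 and 22.5. FGF2, the ligand that E8 medium also supplies as protein, fell from 1558 and 1177 to 773 and 825 (1.71-fold, adjusted p = 0.0061). FGF12 and FGF13 were called at log2 fold changes of -0.65 and -0.51, and each kept the call in 1 of 4 fits that left out a library. FGF11, FGF16, FGF17, FGF18, FGF19 and FGF22 did not pass, with log2 fold changes between -0.13 and 0.92. Of 7 WNT ligands tested, 3 fell and 1 rose, and only WNT3 kept its call in every alternative: it fell from 167 and 185 to 41.7 and 38.3, 4.40-fold (adjusted p = 6.9e-05). Of the 4 WNT ligand calls, 1 remained without E8 replicate 1 or 24 h replicate 1 and 2 remained without 24 h replicate 2. FZD7, a WNT receptor of pluripotent cells, rose from 2215 and 2294 to 4459 and 3709.5 (1.81-fold, adjusted p = 0.00051).

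Direct targets of NODAL and TGFβ signalling were mixed: of 12 tested, 4 fell and 1 rose, with a median of -0.41, and 7 fell and 1 rose with the GC trend removed. Of the 5 NODAL target calls, 3 remained without 24 h replicate 1. MIXL1, a gene of the primitive streak, fell from 264 and 247 to 66.6 and 69.2 (adjusted p = 3e-05). SKIL, a feedback repressor of SMAD signalling, fell from 5240.2 and 3577 to 2543 and 2442 (1.77-fold, adjusted p = 0.0046). SMAD7 and TGIF1, feedback genes of the same pathway, did not pass (log2 fold changes 0.31 and 0.01).

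BMP genes and their targets split, with 2 of 12 tested members higher and 3 lower. Of the 5 BMP calls, 3 remained without 24 h replicate 1. ID3, an inhibitor of basic helix-loop-helix factors that BMP signalling induces, rose from 1227 and 1762 to 4329 and 3730.1 (2.70-fold, adjusted p = 6.8e-06). ID4 rose from 148 and 129.7 to 295 and 267 (adjusted p = 0.0022). SMAD6, the inhibitory SMAD of the BMP pathway, was lower, at 385 and 513 in E8 and 213 and 262 at 24 h (adjusted p = 0.0038, and 0.058 without 24 h replicate 1). The ligand BMP4 was called lower as well, but this call ended without E8 replicate 2 (adjusted p = 0.051) or without 24 h replicate 2 (0.12).

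Of 21 genes of the core pluripotency list, 6 fell, 2 rose and 13 did not pass. Of the 8 core pluripotency calls, 3 remained without 24 h replicate 1. NANOG stood at 6631 and 5818 in E8 and 3904 and 4138 at 24 h, 1.55-fold lower (adjusted p = 0.0058, and 0.08 without 24 h replicate 1). TERF1, which binds telomere repeats and is high in pluripotent cells, fell from 15096 and 12325 to 5387 and 5693 (2.47-fold, adjusted p = 3.7e-06). LIN28B, an RNA-binding protein that blocks let-7 maturation, fell from 4722 and 3659 to 2046 and 2256 (adjusted p = 0.00029), while its relative LIN28A did not pass (log2 fold change 0.18). OTX2, a homeobox factor of the primed state and the anterior epiblast, fell from 227 and 197 to 29.2 and 74.8 (adjusted p = 9.3e-05). Of 11 tested genes of the naive state, 4 fell and 0 rose. NLRP7 fell from 87.3 and 105 to 16.7 and 15.9 (adjusted p = 7.6e-05), and its neighbour NLRP2, which overlaps it on the other strand, was called as well (log2 fold change -1.59, and an adjusted p of 0.056 with the GC trend removed and E8 replicate 1 left out). TBX3, a T-box factor, fell from 35.8 and 38.8 to 0 and 7.48 (adjusted p = 0.0033).

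Lineage genes moved in both directions. Of 12 neuroectoderm genes, 5 rose and 1 fell, and 5 rose and 2 fell with the GC trend removed. Of the 6 neuroectoderm calls, 3 remained without 24 h replicate 1 or 24 h replicate 2. MAP2, a microtubule protein of neurons, rose from 85.6 and 63.6 to 253 and 247 (3.35-fold, adjusted p = 1.6e-05). POU3F1, a POU factor of the epiblast and early neural plate, rose from 252 and 336 to 765 and 635 (adjusted p = 0.00025). SIX3, an anterior neural factor, was called lower (log2 fold change -0.60), though not without either of the 24 h libraries, and SOX1, the defining marker of neural progenitors, did not pass, at 33.2 and 48.8 in E8 and 43.7 and 43.96 at 24 h. Of the 7 tested genes of the trophoblast and amnion list, 4 fell and 3 rose. Of the 7 trophoblast and amnion calls, 4 remained without 24 h replicate 1. GATA2 fell from 114 and 147 to 2.08 and 10.3 (adjusted p = 5.6e-06), KRT7 from 151 and 175 to 69.8 and 76.7 (adjusted p = 0.0028) and GABRP, a GABA receptor subunit of amnion, from 178 and 155 to 64.6 and 60.8 (adjusted p = 0.001). These examples all come from the 4 genes that fell, so they do not stand for the list, in which 3 rose.

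**Figure D2:**
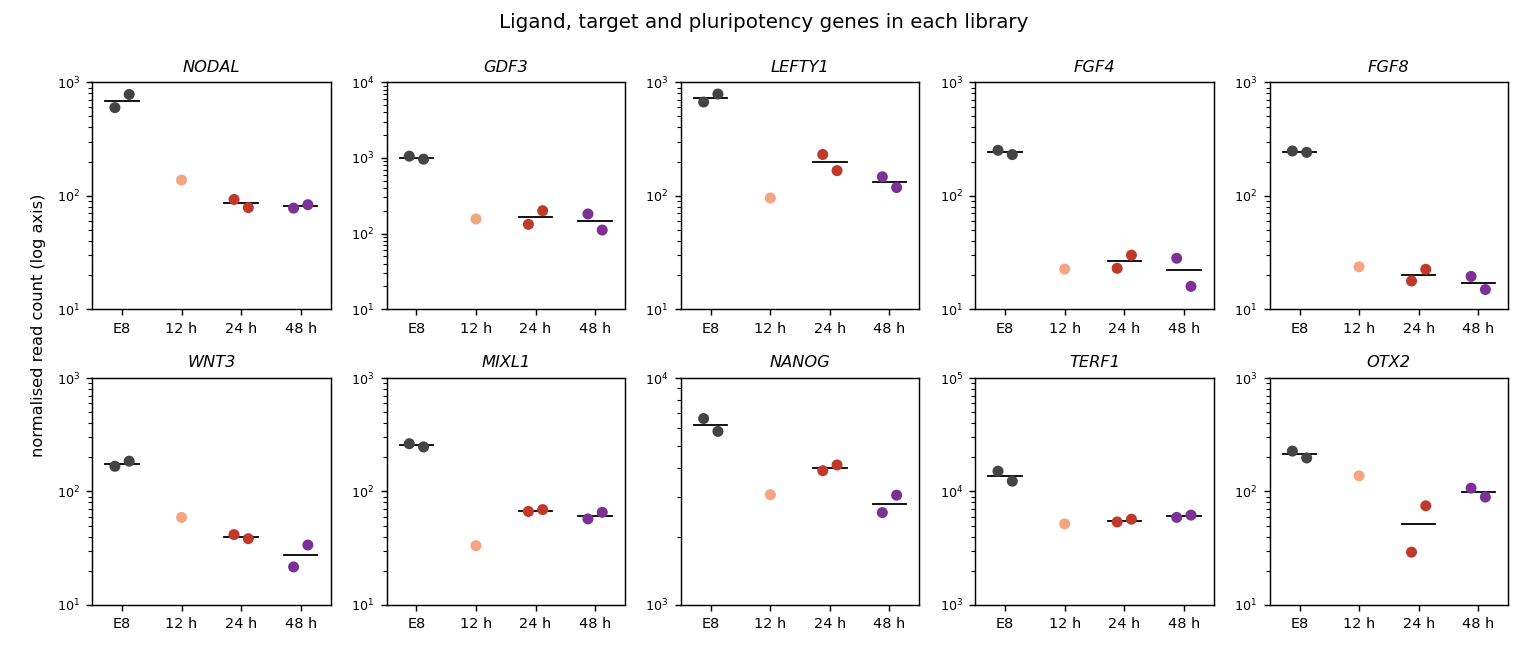
Normalised read count per library (log axis, scale set for each gene) of NODAL, GDF3, LEFTY1, FGF4, FGF8, WNT3, MIXL1, NANOG, TERF1 and OTX2 in E8 and at 12 h, 24 h and 48 h of XMD892; each point is a library and each bar the mean of 2 libraries. In all 10 genes both 24 h libraries lie below both E8 libraries, NODAL at 92.7 and 78.6 against 598 and 782.

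Outside lists, the genes with the largest falls among those that averaged at least 100 in a group were transcription factors, enzymes and surface proteins of several kinds. EBF2, a helix-loop-helix factor known from mesoderm and brown fat, went from 327 and 262 to 9.37 and 7.48 (34.9-fold, adjusted p = 7.4e-08). SCNN1B, part of the epithelial sodium channel, went from 171 and 187 to 14.6 and 6.55 (adjusted p = 5.6e-06). MGAT4C, a glycosyltransferase, went from 168 and 101 to 4.17 and 10.3 (adjusted p = 6.5e-06). In the 12 h library these 3 stood at 5.37, 8.59 and 22.5, far below E8. CYP2B6, a cytochrome P450, fell from 339.6 and 326 to 39.6 and 31.8 (9.32-fold). MMP9, a matrix protease, fell from 106 and 173 to 15.6 and 16.8 (8.58-fold), and SCARA3, a scavenger receptor, from 703 and 923 to 114 and 148 (6.22-fold). TNMD, a membrane glycoprotein of tendon, fell from 117 and 109.9 to 15.6 and 17.8, and CDA, the cytidine deaminase of pyrimidine salvage, from 96.04 and 126 to 14.6 and 19.6.

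Feedback genes of the ERK1/2 pathway did not move as a group: of 17 tested, 1 rose, 2 fell and 14 did not pass, with a median of -0.01. With the GC trend removed 3 rose and 2 fell. SPRY1, a Sprouty protein that dampens FGF signalling, fell from 1516 and 1398 to 914 and 882 (1.62-fold, adjusted p = 0.0038). ETV1, an ETS factor, fell from 1998 and 1609.6 to 1025 and 1026 (adjusted p = 0.0014), while its relatives ETV4 and ETV5 had log2 fold changes of -0.08 and -0.11 and did not pass. DUSP6, the phosphatase that removes ERK phosphate, was higher, at 3478 and 3637 in E8 and 6689.7 and 5501 at 24 h (adjusted p = 0.0012, and 0.054 without 24 h replicate 1). Immediate early genes, which growth factor signals switch on within minutes, gave 4 higher and 0 lower of 15, and 3 higher and 1 lower with the GC trend removed. Of the 4 immediate early calls, 1 remained without E8 replicate 1 or 24 h replicate 1. These were MYC, JUND, IER2 and ARC, and each call ended without at least 1 of the libraries. FOS and EGR1 did not pass (log2 fold changes 0.20 and 0.68). Of 9 tested genes of the ERK5 cascade and its MEF2 targets, 1 was called, MAP3K3, a kinase upstream of MEK5, at 547 and 664 in E8 and 925 and 951 at 24 h (adjusted p = 0.0094, 0.069 without 24 h replicate 1 and 0.074 without 24 h replicate 2). KLF2, the best known ERK5 target, was under the level limit.

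TBX10, a T-box factor on chromosome 11 (67631303 to 67639560, minus strand, GRCh38), had the largest rise among genes that averaged at least 100 in a group. It stood at 36.7 and 56.2 in E8 and 864 and 1095 at 24 h, 21.1-fold higher (log2 fold change 4.39, SE 0.21, adjusted p = 1.5e-11). Its neighbour on the same strand, NUDT8 (67627938 to 67629930), a mitochondrial nudix hydrolase, rose with it, from 74.2 and 102 to 473 and 681 (6.56-fold, adjusted p = 3.6e-08). TBX10 lies upstream of NUDT8, and whether reads of 1 transcript run across both was not tested. Both were highest in the 12 h library, at 1656 and 908.

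The next largest rise was that of VGF, a granin precursor of neuropeptides (chromosome 7, 101162509 to 101165593, GRCh38). Its level was 331 and 366 in E8 and 2554 and 2240.1 at 24 h. The 12 h library held 4155 and the 48 h libraries 485 and 686. The 24 h mean was 6.88-fold that of E8 (adjusted p = 1.6e-09), and the fall from 24 h to 48 h passed too (log2 difference -2.05, adjusted p = 2.2e-07). CHGA, chromogranin A, which drives the formation of secretory granules, rose from 48.9 and 107 to 257 and 223 (adjusted p = 0.00023). Of 15 tested genes of neuropeptides and the secretory granule, 4 rose and 3 fell. Of the 7 neuropeptide and granule calls, 4 remained without 24 h replicate 1. NTS, the precursor of neurotensin, fell from 1234 and 979 to 182 and 202 (5.76-fold, adjusted p = 6.1e-08), so the list did not move one way. Other granule genes, SCG2, SCG5 and CPE, did not pass (log2 fold changes 0.24, -0.14 and -0.34).

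VGF is a known target of CREB, the factor that binds the cyclic AMP response element (CRE), so the 250 bases before its start site are shown, with the full CRE letters in capitals (RefSeq, GRCh38.p14, read on the strand of the gene). The promoters of CHGA and of the histone genes HIST1H4H and HIST1H2BK, which were also called higher, hold the same letters and are shown beside it. Those 3 were chosen after their values were seen. The windows are chr7:101165570-101165819 for VGF, chr14:92922900-92923149 for CHGA, chr6:26285535-26285784 for HIST1H4H and chr6:27146859-27147108 for HIST1H2BK, and the element begins 79, 54, 131 and 99 bases before the start site in this order.
VGF: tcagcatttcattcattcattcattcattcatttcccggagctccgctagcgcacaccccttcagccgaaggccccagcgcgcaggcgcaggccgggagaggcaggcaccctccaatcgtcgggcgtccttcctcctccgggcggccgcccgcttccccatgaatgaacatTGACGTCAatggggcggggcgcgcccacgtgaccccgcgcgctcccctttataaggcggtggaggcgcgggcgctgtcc
CHGA: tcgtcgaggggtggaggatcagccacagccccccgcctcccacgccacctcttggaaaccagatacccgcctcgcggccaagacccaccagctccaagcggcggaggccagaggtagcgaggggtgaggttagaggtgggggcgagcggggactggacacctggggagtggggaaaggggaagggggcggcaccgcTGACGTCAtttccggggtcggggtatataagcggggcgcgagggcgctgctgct
HIST1H4H: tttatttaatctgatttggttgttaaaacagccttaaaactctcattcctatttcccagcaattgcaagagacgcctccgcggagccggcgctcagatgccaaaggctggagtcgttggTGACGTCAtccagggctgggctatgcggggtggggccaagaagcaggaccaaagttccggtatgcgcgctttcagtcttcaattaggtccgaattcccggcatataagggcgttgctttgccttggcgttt
HIST1H2BK: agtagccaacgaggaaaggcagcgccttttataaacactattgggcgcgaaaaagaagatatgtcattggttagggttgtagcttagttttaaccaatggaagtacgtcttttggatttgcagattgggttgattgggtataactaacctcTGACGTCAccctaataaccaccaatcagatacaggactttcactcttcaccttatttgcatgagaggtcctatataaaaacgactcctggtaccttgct

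In windows from 250 bases before to 50 after the start site, searched on both strands, the 8 letters TGACGTCA stood in 65 of the 1076 promoters of genes that rose (6.04%), in 14 of the 845 of genes that fell (1.66%) and in 295 of the 9595 of genes not called (3.07%). Over the 11516 promoters of tested genes the share was 3.25%, and over all 27305 promoters of the table it was 1.98%. With calls from the fit that removed each library's GC trend, the shares were 5.23%, 1.82% and 3.04%, and with calls made without E8 replicate 2 they were 4.53%, 2.57% and 3.02%. In the third of promoters with the lowest GC they were 4.33%, 1.502% and 2.44%, in those of middle GC 6.76%, 1.84% and 4.18%, and in the third with the highest 6.32%, 1.69% and 2.57%. The AP-1 letters TGANTCA stood in 2.79% of promoters of genes that rose, 6.15% of those that fell and 4.22% of those not called. A match describes the letters only, and no binding was measured.

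The list of actin, SRF and YAP targets gave 4 higher and 4 lower of 24, with a median of -0.08. Of the 8 actin, SRF and YAP calls, 4 remained without E8 replicate 1 or 24 h replicate 1 and 5 remained without 24 h replicate 2. TAGLN, an actin-binding protein of smooth muscle, rose from 474 and 621 to 2228 and 1988 (3.85-fold, adjusted p = 1e-07). MYL9, a myosin light chain, rose from 621 and 827 to 1431 and 1262 (adjusted p = 0.001), and TAGLN2 from 1458 and 1736 to 2744 and 2835 (adjusted p = 0.00093). VIM, the intermediate filament vimentin, rose from 525 and 457 to 1026 and 882 (adjusted p = 0.00045). CALD1, caldesmon, fell instead, from 5726 and 5113 to 3314 and 3154 (adjusted p = 0.0014). In TAGLN, MYL9 and VIM the 12 h library was the highest of the 7, with TAGLN at 4847, and the 48 h libraries lay below both E8 libraries for TAGLN and MYL9, at 379 and 348 and 541 and 566.

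Many histone genes rose. Of 29 tested genes named HIST, 14 rose and 0 fell, with a median log2 fold change of 0.95 against 0.01 over all genes. Of the 14 HIST calls, 8 remained without 24 h replicate 2. HIST1H4H stood at 75.1 and 75.2 in E8 and 325 and 458 at 24 h (5.21-fold, adjusted p = 1.6e-07). HIST1H2BD rose from 30.6 and 37.2 to 154 and 159.9 (adjusted p = 2.5e-06), and HIST1H2AC from 115 and 96.7 to 369 and 579 (adjusted p = 9.6e-07). HIST1H2BJ and HIST1H2BK were called too, but not without 24 h replicate 2 (adjusted p = 0.27 and 0.28), and HIST1H2BK not without E8 replicate 1 (0.079). These genes are near-identical copies, and most of their transcripts end in a stem loop in place of a poly(A) tail. Since the libraries were selected for poly(A), the values count only what that selection kept. The list of HEXIM1, P-TEFb and BET genes gave 1 higher and 1 lower of 12 tested, with a median of -0.003. That is 8.33% each way, near the 8.58% and 7.58% over all genes. HEXIM1, the inhibitor of the elongation kinase P-TEFb, rose from 537 and 739 to 1372 and 1503 (2.25-fold, adjusted p = 6.4e-05). LARP7 was called lower, though not without 24 h replicate 1. BRD2 and BRD3, genes of BET proteins, did not pass (log2 fold changes 0.31 and -0.06).

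In the MYC family, 5 of 13 tested genes rose and 0 fell. Of the 5 MYC family calls, 2 remained without 24 h replicate 1. MYCN rose from 1849 and 2209.5 to 3610.4 and 3374 (1.72-fold, adjusted p = 0.0012), and MXD4, an antagonist of MYC, from 387 and 492 to 1029 and 990.5 (2.30-fold, adjusted p = 4.8e-05). MYC was called at 1.45-fold, with an adjusted p of 0.016, and 0.299 without 24 h replicate 1. ODC1, the entry enzyme of polyamine synthesis and a MYC target, rose from 2757 and 2888 to 8031 and 6526 (2.58-fold, adjusted p = 2.1e-06). Ribosome biogenesis gave 5 higher and 0 lower of 24, of which BOP1, a factor of large-subunit assembly, kept its call in every alternative (2555 and 3900.0 to 5376 and 5041, adjusted p = 0.0059). Of the 5 ribosome biogenesis calls, 2 remained without E8 replicate 1, 24 h replicate 1 or 24 h replicate 2. Cytosolic ribosomal proteins gave 1 higher and 0 lower of 24, and 2 higher with the GC trend removed. The ribosomal protein call ended without E8 replicate 1.

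**Figure D3:**
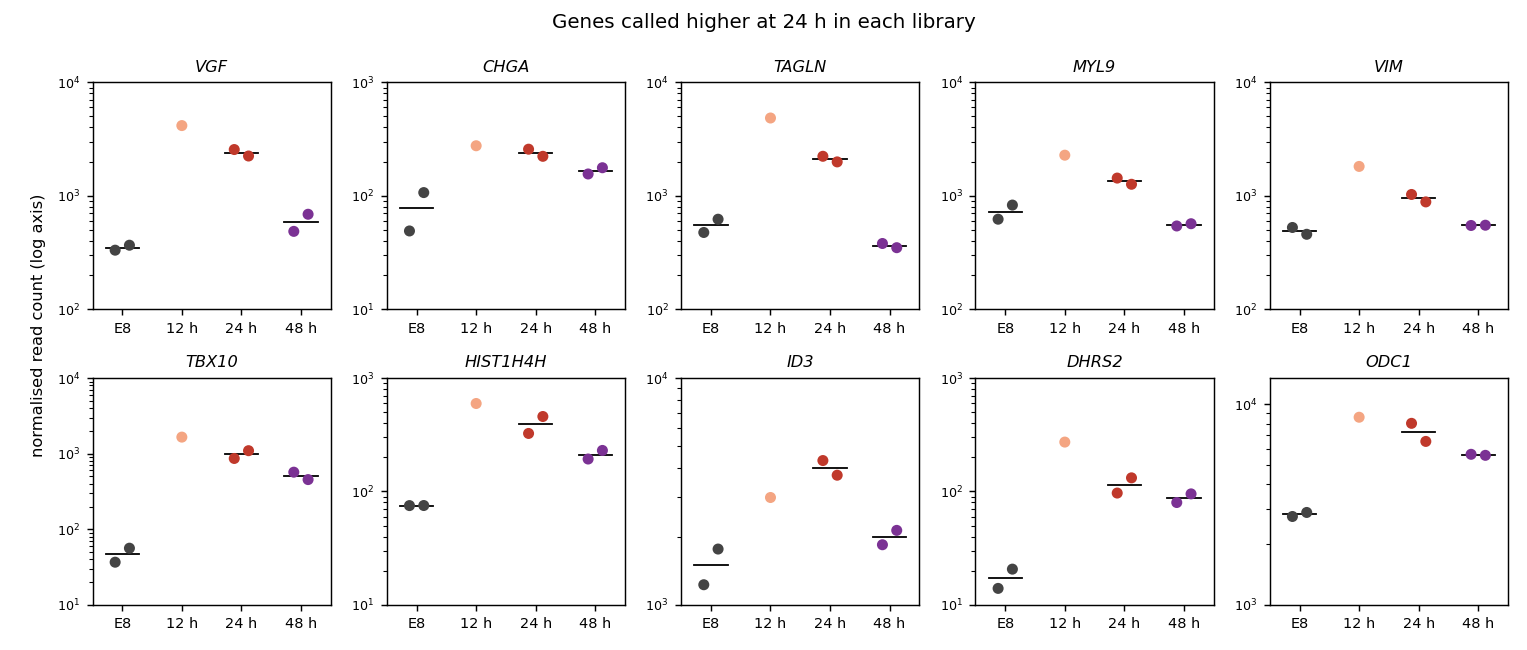
Normalised read count per library (log axis, scale set for each gene) of VGF, CHGA, TAGLN, MYL9, VIM, TBX10, HIST1H4H, ID3, DHRS2 and ODC1 in E8 and at 12 h, 24 h and 48 h of XMD892; each point is a library and each bar the mean of 2 libraries. Both 24 h libraries lie above both E8 libraries in each gene, and the single 12 h library is the highest of the 7 in each but ID3.

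Of 23 genes of cholesterol synthesis, 7 rose and 0 fell, 3 of them in every fit that left out a library. Of the 7 cholesterol synthesis calls, 3 remained without 24 h replicate 1. MVD, which makes isopentenyl diphosphate, stood at 1359 and 2197 in E8 and 5139 and 3362 at 24 h (2.39-fold, adjusted p = 0.00023). LSS, which closes the sterol rings, rose from 3684 and 5320.4 to 8376 and 7414 (adjusted p = 0.0016). HMGCS1, an early enzyme of the pathway, did not pass (log2 fold change -0.03). Fatty acid synthesis gave 4 higher and 0 lower of 12, and 2 higher with the GC trend removed. Of the 4 fatty acid synthesis calls, 0 remained without 24 h replicate 1. FASN, the fatty acid synthase, was at 36816 and 43166 and 67702 and 58367 (adjusted p = 0.0058, 0.0501 with the GC trend removed and 0.098 without 24 h replicate 1). Genes of the vacuolar ATPase and lysosome gave 7 higher and 0 lower of 23. Of the 7 ATPase and lysosome calls, 2 remained without 24 h replicate 1. ATP6V0C, the proton-pore subunit, rose from 45.4 and 71.1 to 298 and 365 (5.69-fold, adjusted p = 3.3e-07), and ATP6V0B from 1100.1 and 1506 to 2196 and 2132 (adjusted p = 0.0033). In MVD, LSS, ATP6V0C and ATP6V0B, E8 replicate 1 was the lowest of the 4 libraries.

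Of 16 tested genes of the hypoxia response, 5 fell and 1 rose. STC1, a glycoprotein hormone induced by low oxygen, stood at 792 and 601 in E8 and 165 and 161 at 24 h. The 12 h library held 188 and the 48 h libraries 921 and 825. It was 4.28-fold lower at 24 h than in E8 (adjusted p = 1.5e-07), and its 48 h libraries were above both E8 libraries. BNIP3, a mitophagy receptor, fell from 2527 and 2494 to 1420.4 and 1302 (adjusted p = 0.00039) and stood at 3293.6 and 2836 at 48 h. PDK1, which holds back pyruvate entry into mitochondria, fell from 1013 and 770.1 to 409 and 397 (adjusted p = 0.00014). SLC16A3, the lactate exporter, fell from 382 and 639 to 249 and 260.0 (adjusted p = 0.0033) and stood at 1016 and 881 at 48 h. In these genes the 12 h and 24 h libraries lay below both groups harvested at 48 h, treated or not. ADM, adrenomedullin, went against the list and rose from 315 and 417 to 952 and 624 (adjusted p = 0.00098). In the glycolysis list, which holds SLC16A3, 1 gene rose (4.55%) and 2 fell (9.09%) of 22 tested. The shares over all genes were 8.58% and 7.58%. With the GC trend removed 3 glycolysis genes rose and 3 fell. Of the 3 glycolysis calls, 1 remained without 24 h replicate 1 or 24 h replicate 2.

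DDIT4, an inhibitor of mTORC1 and a target of ATF4 and of hypoxia, stood at 383 and 439 in E8, at 96.6 in the 12 h library, at 151 and 121 in the 24 h libraries and at 966 and 789 in those of 48 h (3.03-fold lower at 24 h than in E8, adjusted p = 1.1e-05). VLDLR fell from 418 and 324 to 163 and 133 (adjusted p = 0.00015). SLC7A11, the cystine transporter, fell from 439 and 331 to 174 and 102 (adjusted p = 0.00038), and unlike the former it was lower still at 48 h, at 55.1 and 66.4. SLC7A5, a leucine transporter, rose from 7532 and 9234 to 13360.0 and 13709 (adjusted p = 0.0024). Of the 23 ATF4 targets tested, 5 fell and 2 rose, and 8 fell with the GC trend removed. Of 18 aminoacyl-tRNA synthetases, which ATF4 also induces, 0 rose and 1 fell, and 2 rose and 3 fell with the GC trend removed. The synthetase call ended without E8 replicate 1, 24 h replicate 1 or 24 h replicate 2.

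Between 24 h and 48 h of XMD892 few genes changed: 194 of 16415 (1.18%), 55 higher (0.335%) and 139 lower (0.847%) at 48 h. That comparison shares its 24 h libraries with the one against E8, so a 24 h library that stands apart enters both. Leaving out 1 library gave between 57 and 216 calls, and removing the GC trends gave 412, of which 184 were higher and 228 lower. The rises that passed in every alternative were led by DDIT4 (log2 difference 2.69, adjusted p = 1.7e-08), TXNIP (2.61, 1.1e-08) and STC1 (2.41, 3.1e-08). TXNIP, which binds thioredoxin and curbs glucose uptake, did not pass at 24 h, 260.3 and 219 against 212 and 253 in E8 (adjusted p = 0.898), and stood at 1522 and 1403 at 48 h. APELA, a peptide ligand secreted by pluripotent cells, fell at 24 h from 521 and 335 to 146 and 202 (adjusted p = 0.00042) and stood at 545 and 579 at 48 h (log2 difference 1.71, adjusted p = 7.9e-05). TAGLN (log2 difference -2.53, adjusted p = 8e-09) and IGFBP6 (-2.72, 0.0019) were lower at 48 h than at 24 h.

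**Figure D4:**
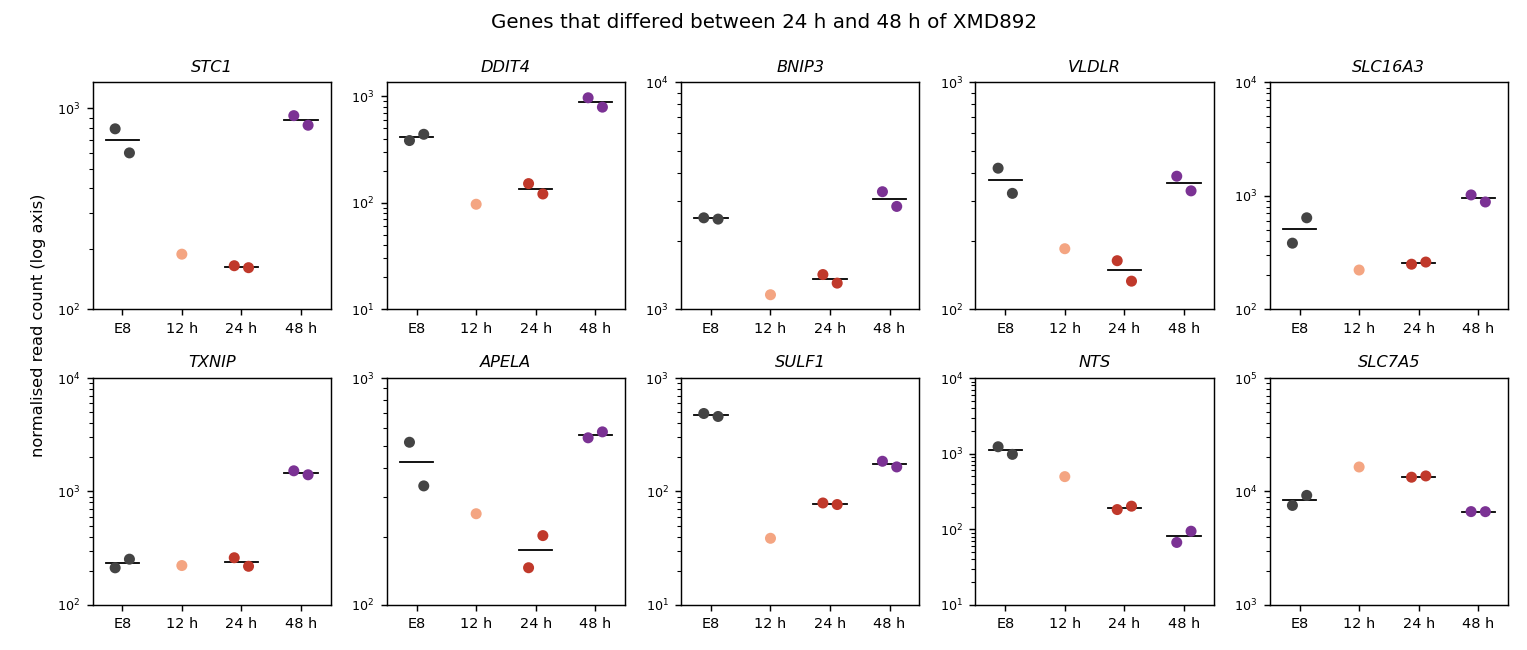
Normalised read count per library (log axis, scale set for each gene) of STC1, DDIT4, BNIP3, VLDLR, SLC16A3, TXNIP, APELA, SULF1, NTS and SLC7A5 in E8 and at 12 h, 24 h and 48 h of XMD892; each point is a library and each bar the mean of 2 libraries. E8 was harvested at 48 h, and in STC1, DDIT4, BNIP3, VLDLR and SLC16A3 the 12 h and 24 h libraries lie below both the E8 and the 48 h libraries.

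Of 24 mitosis genes, 5 fell and 0 rose, with a median of -0.30, and none of the 5 calls held in all 4 fits that left out a library. Of the 5 mitosis calls, 0 remained without 24 h replicate 1 and 2 remained without E8 replicate 1 or 24 h replicate 2. MKI67, the proliferation marker, stood at 6596 and 6137 in E8 and 3443 and 5000.2 at 24 h (adjusted p = 0.014, and 0.385 without 24 h replicate 1). DNA replication genes gave 3 higher and 0 lower of 24, and 7 higher with the GC trend removed. Of the 3 DNA replication calls, 0 remained without 24 h replicate 1 or 24 h replicate 2. CDKN1C, the CDK inhibitor p57, was higher (1123 and 1194 to 2102 and 1919, adjusted p = 0.0023, and 0.078 with the GC trend removed and E8 replicate 2 left out). Among 19 p53 targets, 2 rose and 1 fell, and 2 rose and 2 fell with the GC trend removed. Of the 3 p53 target calls, 1 remained without E8 replicate 1. TP53I3, an oxidoreductase, rose from 159.8 and 343 to 560.2 and 591 (adjusted p = 0.001). PMAIP1, the BH3-only protein NOXA, fell from 4412 and 4161 to 2159.8 and 2026 (2.05-fold, adjusted p = 5e-05).

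The matrix and the cell surface changed in both directions, with 8 of 24 matrix and integrin genes lower and 3 higher. Of the 11 matrix and integrin calls, 6 remained without 24 h replicate 1 or 24 h replicate 2 and 7 remained without E8 replicate 1. SULF1, which trims sulfate from heparan sulfate chains that FGFs bind, fell from 487 and 459 to 79.1 and 76.7 (6.07-fold, adjusted p = 6.1e-08). HAPLN1, a link protein of hyaluronan, fell from 246 and 193 to 27.1 and 28.995 (adjusted p = 2.2e-05). CLDN6, a tight junction claudin of pluripotent cells, rose from 10535 and 14834 to 23534 and 22496 (adjusted p = 0.0008). Of 22 growth factor receptors, 7 fell and 2 rose. Of the 9 receptor calls, 4 remained without E8 replicate 1, 24 h replicate 1 or 24 h replicate 2. KDR, the VEGF receptor, fell from 2743 and 2527 to 1049.7 and 1122 (2.43-fold, adjusted p = 1.7e-05), and MET, the HGF receptor, from 477 and 372 to 192 and 228 (adjusted p = 0.0015). ERBB2 was higher, at 6671 and 9070.0 and 11877 and 11859 (adjusted p = 0.0094, 0.0515 without E8 replicate 1 and 0.059 without 24 h replicate 1). Guidance genes of axons gave 5 lower and 1 higher of 19, and 8 lower and 2 higher with the GC trend removed. Among them was SEMA3A, a secreted repellent, which fell from 918 and 731 to 323 and 354 (adjusted p = 4.9e-05).

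Binding proteins of the insulin-like growth factors moved apart. IGFBP6 rose from 4.37 and 7.44 to 51.03 and 70.1 (adjusted p = 7.8e-05) and IGFBP2 from 6011 and 9454 to 14485 and 12581 (adjusted p = 0.0033). IGFBP5 fell from 100.4 and 94.2 to 17.7 and 37.4 (adjusted p = 0.0006). In the NOTCH list 2 of 20 fell and 2 rose: DLL3, an inhibitory ligand, fell from 201 and 216 to 94.8 and 74.8 (adjusted p = 0.00067). Retinoid genes gave 3 higher and 2 lower of 16, and 4 and 5 with the GC trend removed. DHRS2, a short-chain dehydrogenase, rose from 13.97 and 20.7 to 96.8 and 132 (6.61-fold, adjusted p = 2.2e-06), LRAT, which makes retinyl esters, from 2308 and 2002 to 3404 and 4158 (adjusted p = 0.0011), and ALDH1A3, which makes retinoic acid, fell from 212 and 209.9 to 91.6 and 109 (adjusted p = 0.0035).

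In 3 lists no gene passed limma in either direction: heat shock proteins (13 tested), nuclear genes of oxidative phosphorylation (21) and the proteasome (16). HSP90AB1, the most abundant of the first, stood at 73302 and 71991 in E8 and 68103 and 70891 at 24 h (adjusted p = 0.81). With the GC trend removed the heat shock list gave 3 higher and 1 lower, oxidative phosphorylation 3 higher and the proteasome 1 higher. Of the 11 tested genes of metallothioneins and zinc handling, the zinc importer SLC39A10 was called, at 4528 and 3356 and 2562 and 2512 (adjusted p = 0.0099, 0.055 without 24 h replicate 1 and 0.054 without 24 h replicate 2); with the GC trend removed 1 gene of this list rose and 1 fell. The share called in each list is best read against the share over all genes, 8.58% higher and 7.58% lower, which the plot of lists marks. The lists were chosen with earlier results of these data known, so a share above these can come in part from the choice.

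**Figure D5:**
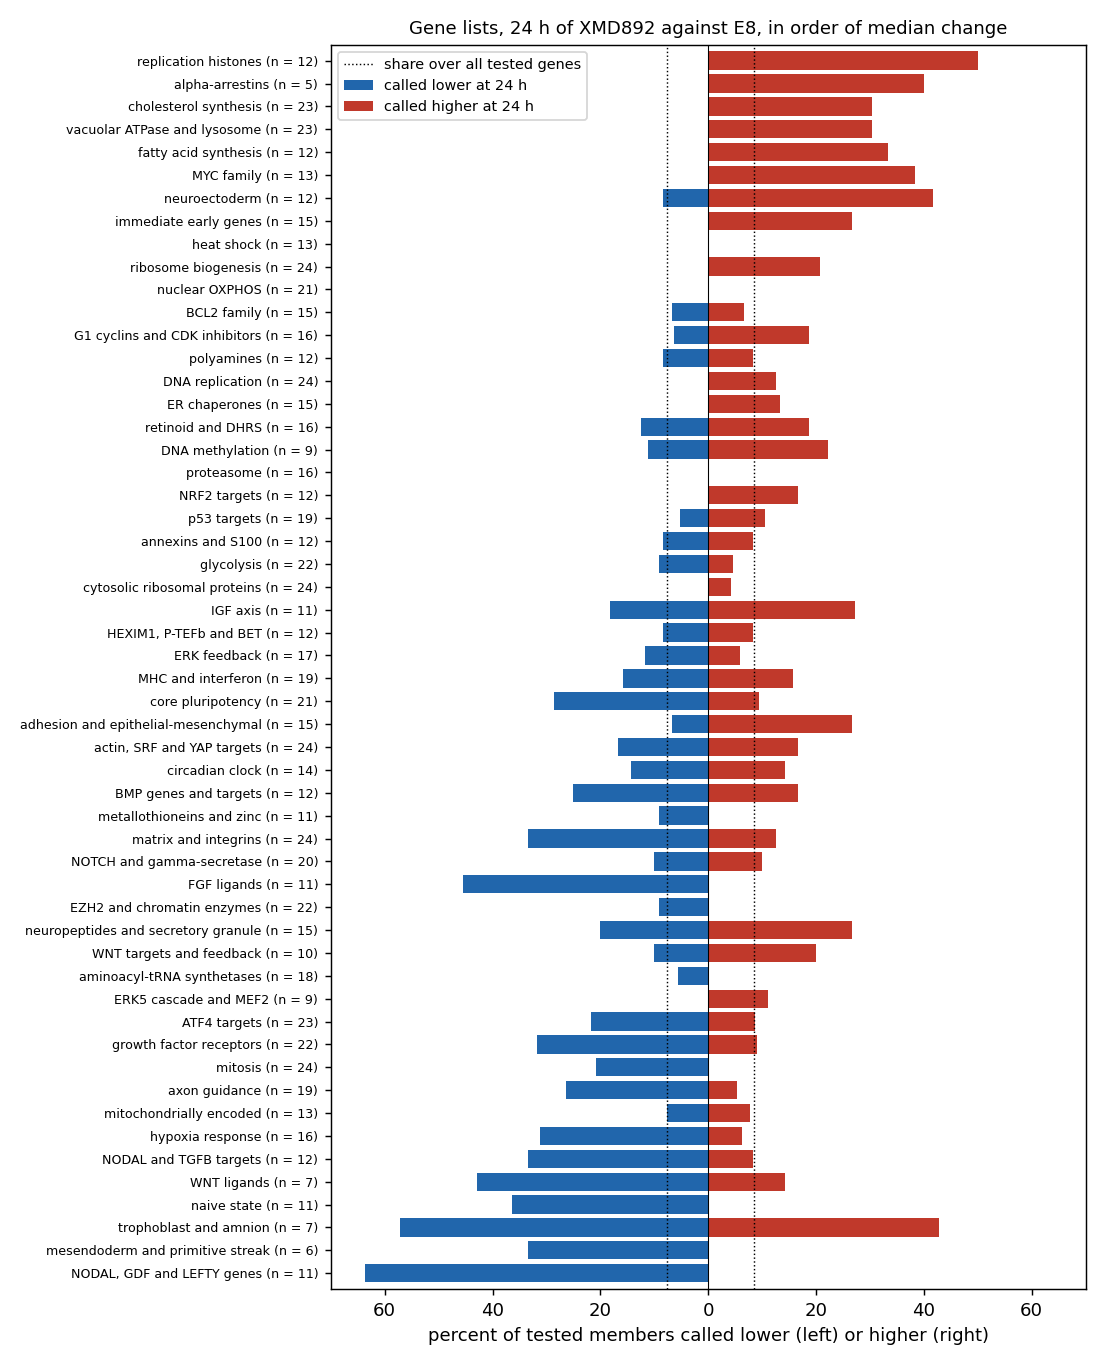
Share of tested members of each gene list (percent, horizontal axis) called lower (blue, left) or higher (red, right) at 24 h of XMD892 against E8, for lists with at least 5 tested members, ordered by median log2 fold change; the number tested follows each name and dotted lines mark the shares over all 16415 genes. NODAL, GDF and LEFTY genes lie lowest with 7 of 11 called lower, and replication histones highest with 6 of 12 called higher.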

How the data were processed

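RNA of H1 cells was selected for poly(A) with oligo(dT) and sequenced as paired ends on a NextSeq 500, per the labels' protocols. Per the submitters' processing notes, Trimmomatic 0.36, STAR, featureCounts 1.5.3, DESeq2 1.26.0 and the build hg38 were used; their roles, the annotation and the strand setting are not given in the sources used here. The values the authors deposited are a normalised signal per gene: read counts divided by 1 factor per library. Of the values, 100.0% lay within 0.1 of whole multiples of 1 step per library, so whole reads could be recovered for count tests. The table held 2 columns of per-sample values that match no sample and were not used.

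From these values limma 3.58.1 (R 4.3.3, trend) was fitted on log2(value + 1) over all 7 libraries with 1 mean per group (3 residual degrees of freedom). The spread of each gene was moderated towards that of genes of similar level, with 18.2 prior degrees of freedom. The p-values were adjusted by Benjamini-Hochberg over 16415 genes. A gene was called at an adjusted p under 0.05; all adjusted p-values come from limma unless a sentence names another tool. Coordinates come from GENCODE release 29, which matched 19319 genes (97.7%). Promoters are from RefSeq on GRCh38.p14, matched by symbol for 11516 tested genes. The procedure was tested on simulated data. The simulated libraries carried no GC trend, so that test does not bear on calls along GC.

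The members and the 56 gene lists were chosen with earlier results of these data known. Named genes were the kinase pair and 3 core pluripotency factors, the 15 largest called changes each way without overlap among genes averaging at least 100 in a group, up to 4 members per list by smallest p, the 5 largest each way between 24 h and 48 h, and the neighbours of TBX10. Some genes that meet this rule are not reported here. Other list members given with a log2 fold change alone were chosen after their values were seen. Alternatives changed the pseudocount, the filter, the scaling, the test (edgeR 4.0.16 and DESeq2 1.42.0 on recovered reads), the libraries fitted, the replicate block, each library's GC trend (loess, span 0.3) and left out each library.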

Additional observations from a re-analysis of the deposited data

Results flagged for a closer look

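Among the genes named by rule and reported here, 37 differed between 24 h and 48 h of XMD892 by limma's test of that difference. The naming rule includes genes with the largest change in that contrast, so this count is set in part by the choice. The contrast shares its 24 h libraries with the contrast against E8, and 16 of the 37 passed in every alternative. Values below are log2 differences, 48 h minus 24 h.

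Among genes that stood higher at 24 h than in E8, all those that differed were lower at 48 h than at 24 h. Genes were named in part for their rise in the same 24 h libraries, so this shared direction is set in part by the choice. Calls over all genes also leaned this way, 139 lower and 55 higher at 48 h. VGF differed by -2.05, TAGLN by -2.53, IGFBP6 by -2.72, MYL9 by -1.28, COL1A1 by -1.34, SLC7A5 by -1.03 and SPP1 by -1.67, all of which passed in every alternative. Smaller differences were those of TBX10 (-0.94), NUDT8 (-0.98), HIST1H4H (-0.87), HIST1H2AC (-0.86), ID3 (-1.02), POU3F1 (-0.85), MYC (-0.59), JUND (-0.86), ARC (-1.04), TAGLN2 (-0.65), ADM (-0.95), VIM (-0.79) and ERBB2 (-0.79). Each of these lost its call in at least 1 alternative.

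Genes lower at 24 h than in E8 went both ways. DDIT4 (2.69), STC1 (2.41), SLC16A3 (1.89), APELA (1.71) and BNIP3 (1.17) were higher at 48 h in every alternative. IGFBP5 (1.69), VLDLR (1.27), SULF1 (1.15) and NID1 (0.80) were also higher, but not in every alternative. Without 48 h replicate 1 the adjusted p by limma was 0.059 for VLDLR and 0.129 for SULF1. The fall went further at 48 h for NTS (-1.26), SLC7A11 (-1.13), D21S2088E (-1.07) and ANXA3 (-0.97), each lost in at least 1 alternative.

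Genes not called at 24 h against E8 were TXNIP (2.61), MIR210HG (1.92), MT1H (-2.21) and GCNT4 (-1.89). MIR210HG, the host gene of a hypoxia-induced microRNA, stood at 44.8 and 37.4 at 24 h and 181 and 137 at 48 h. MT1H, a metallothionein, stood at 133 and 88.9 and 23.8 and 21.8.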

How the results depend on the processing

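The count of 2652 called genes lay between 2150 (DESeq2) and 3666 (GC trend removed) under the alternatives that kept all 4 compared libraries, with 2622 by edgeR and 2219 when only those libraries were fitted. Leaving out 1 library gave 1110 to 4896 calls, 524 to 2884 higher and 586 to 2012 lower. With the GC trend removed the higher calls were 2149; with the trend removed and E8 replicate 1 left out, the lower calls were 821. The lone library left in a group is then assumed to vary like the others. The 194 calls between 24 h and 48 h became 412 with the GC trend removed (184 higher, 228 lower, against 55 and 139), 1023 when only those 4 libraries were fitted, and 57 to 216 without 1 library. The causes were not tested. No named gene turned direction, which leaving out a library could not bring about where the groups do not overlap. Of the 179 named genes called at 24 h, 91 passed in every alternative. Replicates with the same number did not deviate together across genes (correlations -0.04, -0.05 and -0.07). Whether they shared a culture or batch is not stated in the labels, and these correlations cannot settle it. With that number as a replicate block, 2624 genes were called at 24 h against E8 and 284 between 24 h and 48 h. With 2 libraries a group, small differences are not detectable.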

Other observations

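Gene families outside the lists, matched by the start of the symbol so that antisense RNAs, pseudogenes and assembly factors are included, differed in how many members passed limma, against 8.58% higher and 7.58% lower over all genes. Genes whose symbols start with KCN, most of them potassium channel genes, gave 11 lower and 1 higher of 57 tested, with a median log2 fold change of -0.43. Of the 12 KCN calls, 7 remained without 24 h replicate 1. Those starting with PCDH, adhesion proteins of neurons of which only some share exons, gave 7 lower and 0 higher of 53, with a median of -0.44. Of the 7 PCDH calls, 3 remained without E8 replicate 1 and 4 remained without E8 replicate 2 or 24 h replicate 2. Symbols starting with COL gave 8 lower and 4 higher of 38, and their median was -0.32 without E8 replicate 1 and 0.06 without E8 replicate 2. Of the 12 COL calls, 7 remained without 24 h replicate 1. Those starting with MRPL or MRPS, mostly mitochondrial ribosomal proteins, gave 14 higher and 0 lower of 81, and 27 higher with the GC trend removed. Of the 14 MRPL and MRPS calls, 3 remained without E8 replicate 1, 6 remained without 24 h replicate 1 and 9 remained without 24 h replicate 2. NDUF genes gave 6 higher and 0 lower of 49, and 10 higher with the GC trend removed. Their median was 0.06 without E8 replicate 1 and 0.43 without E8 replicate 2. Of the 6 NDUF calls, 2 remained without 24 h replicate 1. Of 209 TMEM genes, 31 were higher and 6 lower, and 45 and 11 with the GC trend removed. Of the 37 TMEM calls, 10 remained without 24 h replicate 1 and 16 remained without E8 replicate 1 or 24 h replicate 2.

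Long intergenic noncoding RNAs were called lower more than higher, 73 (11.8%) against 25 (4.04%) of 619 tested. Of the 98 long intergenic calls, 43 remained without 24 h replicate 1 and 49 remained without E8 replicate 1. Zinc finger genes (ZNF) gave 31 lower (6.21%) and 19 higher (3.81%) of 499, both under the 7.58% and 8.58% over all genes. With the GC trend removed the ZNF calls were 32 and 31. Of the 50 ZNF calls, 15 remained without 24 h replicate 1, 16 remained without E8 replicate 1 and 22 remained without 24 h replicate 2. Of 23 snoRNAs, which lack poly(A) tails, 0 passed in either direction. A list of other RNAs without a poly(A) tail gave 1 higher of 4 tested, with a median log2 fold change of 1.85. Its median ranged from -0.19 to 3.27 between single pairs of libraries. The called gene, RN7SL3, had a log2 fold change of 1.95, and 0.07 without E8 replicate 1.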
